A study of Homo sapiens with 6 samples.

Results

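JJN3 cells that received only the vehicle, DMSO, are described here from 2 of the 6 RNA-seq libraries of the study, the libraries labelled DMSO replicate 1 and DMSO replicate 2. JJN3 is a human multiple myeloma cell line. It was established from plasma cell leukaemia, the form of myeloma in which the tumour cells circulate in the blood, and it carries a translocation that places MAF under the immunoglobulin heavy chain enhancers. The labels give these cells as wild type, untreated apart from DMSO and grown in DMEM and IMDM with fetal bovine serum. The other 4 libraries, from cells given the kinase inhibitor WNK463, were not used. The labels call the time of these cells "control" and do not say whether the replicates were separate cultures, so the spread between them may be technical, and 2 libraries of 1 group allow no test. No normal plasma cells were among the samples, so no level here can be set against one.

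Plasma cells are the antibody-secreting end stage of the B lineage. IRF4, PRDM1 and XBP1 drive that stage: PRDM1 shuts down the B cell programme set by PAX5, IRF4 is required for plasma cell survival, and XBP1 enlarges the secretory pathway. In myeloma, translocations into the immunoglobulin heavy chain locus raise a D-type cyclin, NSD2 with FGFR3, or a large MAF factor, and the MAF factors in turn act on CCND2 and ITGB7.

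The table of fragment counts listed 60728 genes. Assigned counts totalled 18013790 in replicate 1 and 21300013 in replicate 2, so that 1 count was worth 0.0555 and 0.0469 CPM (counts scaled to the library total). A gene was called on at 1 CPM or more in both libraries, off at 3 or fewer counts in each, and low otherwise. The off limit corresponds to 0.167 and 0.141 CPM, and it limits detection at this depth rather than showing that a gene was silent. On these rules 12523 genes were on (20.6%), 7130 were low and 41075 were off (67.6%). Of the 19928 protein-coding genes, 11029 were on (55.3%), 2244 were low and 6655 were off (33.4%), and these shares are the background for every list below. Levels of different genes are compared as CPM per kilobase of summed exon length, on which scale the median protein-coding gene that was on stood at 6.97, the quartiles at 2.49 and 16.5, and the 99% point at 225. In the pairs of values below, replicate 1 comes first.

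Promoter composition is given first, as the 250 bases before the start of genes that were on, low or off. Promoter sequences from RefSeq (GRCh38.p14, the first start listed for each gene) matched 15269 protein-coding genes by symbol. Among the 9095 of them that were on, the median window held 21 CpG dinucleotides and 65.2% GC. The 1675 low genes had medians of 13 and 61.6%, and the 4499 off genes 5 and 54.8%. An observed to expected CpG ratio of at least 0.6 was found in 83.2% of the on, 50.1% of the low and 31.2% of the off genes, against 64.2% of all promoters. The letters TATAAA, searched on the gene strand from 50 to 21 bases upstream, stood in 1.54% of on, 4.06% of low and 8.16% of off promoters, with 3.77% over all. GGGCGG, on either strand of the 250 bases, stood in 68.4%, 52.5% and 34.7%, with 56.7% over all. The 81 matched genes among the 100 highest nuclear protein-coding genes by CPM per kilobase held GGGCGG in 70.4% and TATAAA in 7.41%. These shares are a description over genes, with no test, and a match of letters is not a binding site.

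The following windows of the last 100 bases before the start show the range, with CpG in capitals, read 5′ to 3′ on the gene strand. None of their bases lies in an exon of the deposited gene models. EEF1A1 (chr6:73521033-73521132, minus strand) is the gene with the most counts, MAF (chr16:79600738-79600837, minus strand) and IRF4 (chr6:391652-391751, plus strand) are 2 of the defining regulators, and PGK1 (chrX:78104148-78104247, plus strand) is a glycolytic enzyme. EBF1 (chr5:159097957-159098056, minus strand) and LDHC (chr11:18412218-18412317, plus strand) had 0 counts in both libraries.
EEF1A1: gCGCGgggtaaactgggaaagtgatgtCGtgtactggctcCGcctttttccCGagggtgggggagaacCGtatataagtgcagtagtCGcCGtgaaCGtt
MAF: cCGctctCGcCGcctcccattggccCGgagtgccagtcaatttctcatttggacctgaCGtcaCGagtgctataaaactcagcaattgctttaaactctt
IRF4: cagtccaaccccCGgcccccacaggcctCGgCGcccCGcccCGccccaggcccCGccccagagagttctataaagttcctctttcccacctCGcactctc
PGK1: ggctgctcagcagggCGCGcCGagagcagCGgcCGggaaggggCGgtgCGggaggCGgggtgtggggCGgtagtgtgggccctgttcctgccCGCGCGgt
EBF1: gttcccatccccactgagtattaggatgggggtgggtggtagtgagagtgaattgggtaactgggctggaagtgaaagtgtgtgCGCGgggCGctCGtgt
LDHC: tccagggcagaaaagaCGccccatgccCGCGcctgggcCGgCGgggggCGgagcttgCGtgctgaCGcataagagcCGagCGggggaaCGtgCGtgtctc
The MAF and IRF4 windows hold TATAAA, which 3.77% of all promoters have in that position. LDHC, the lactate dehydrogenase of the testis, was off although its window has 12 CpG, the same number as that of PGK1, while EBF1, an early B cell factor, has 4. The off genes thus included promoters of both compositions.

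A small set of genes held much of the RNA counted. The 10 highest genes took 6.22% and 6.85% of the counts, the 100 highest 20.1% and 20.5%, and the 1000 highest 52.0% and 52.2%. A total of 897 genes held 50% of the counts. EEF1A1, which delivers aminoacyl-tRNA to the ribosome, was first at 13647 and 14013 CPM. Mitochondrially encoded subunits of the respiratory chain followed, MT-CO1 at 10186 and 11869 CPM and MT-ND4 at 6400 and 7978 CPM. Actin ACTB stood at 5705 and 6159 CPM, the glycolytic enzyme ENO1 at 4994 and 4690 CPM, and the chaperones HSP90AB1 and HSPA8 at 4199 and 4413 CPM and at 3736 and 3977 CPM. These values do not compare genes of different length, since long genes collect more fragments.

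Per kilobase the order changed. MT-CO1 led at 6606 and 7697 CPM per kilobase, and IGKC, the kappa light chain constant gene, stood at 6714 and 6165, so that their ranges overlapped. MT-CO3 (6322 and 6536), MT-CO2 (5746 and 6930) and MT-ATP6 (5433 and 7052) lay in the same range and cannot be ordered. EEF1A1 came to 2493 and 2560, ACTB to 1671 and 1805, GAPDH to 1504 and 1547, HSP90AB1 to 1409 and 1481, and ENO1 to 957 and 899. AHNAK, a giant membrane-associated scaffold protein that myelomas with MAF are known to express, took 3839 and 3607 CPM over 19466 bases of exon and only 197 and 185 CPM per kilobase. Mitochondrial genes together held 4.43% and 5.15% of the counts, and 86 cytosolic ribosomal protein genes, 85 of them on, held 5.96% and 5.55%.

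**Figure D1:**
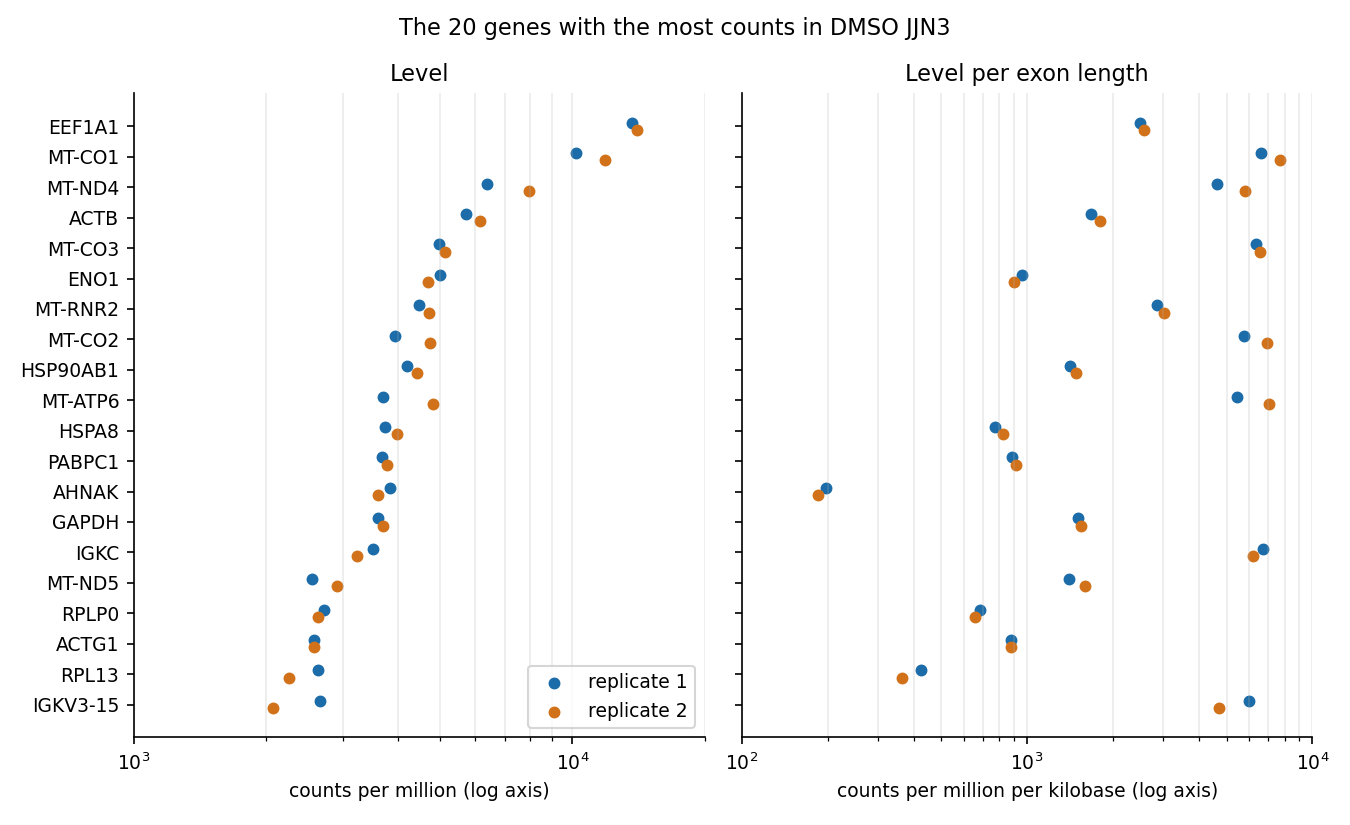
The 20 genes with the highest mean CPM in the 2 DMSO libraries, with CPM on the left and CPM per kilobase of exon on the right (log axes, 1 point per library). EEF1A1 has the most counts, while per kilobase IGKC, IGKV3-15 and 6 mitochondrial genes lie above it and AHNAK lies lowest.

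Noncoding RNA made up little of the total, with 1.05% and 1.03% of counts in long noncoding genes and 0.438% and 0.417% in pseudogenes. The mitochondrial ribosomal RNA MT-RNR2 was the highest at 4463 and 4717 CPM. NORAD, which binds PUMILIO proteins, stood at 478 and 500 CPM, the paraspeckle RNA NEAT1 at 451 and 400 CPM, and MALAT1, a nuclear speckle RNA, at 192 and 149 CPM. AFAP1-AS1 reached 210 and 210 CPM, with 42.2% of its exonic length shared with another gene.

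Immunoglobulin counts lay almost wholly in the kappa constant gene, 1 kappa variable gene and IGHG1. IGKC (chr2:88857161-88857683, minus strand) had 63255 and 68682 counts, 3511 and 3225 CPM. Among 46 kappa variable genes, IGKV3-15 (chr2:89085177-89085787) held 99.9% of the counts in each library, at 2655 and 2073 CPM, and no other kappa variable gene passed 3 CPM. Of the kappa joining segments, IGKJ5 had 89 and 114 counts and IGKJ4 had 20 and 28. The lambda locus was near the detection limit: IGLC2 had 3 and 0 counts, the other 3 lambda constant genes had 0, and 37 lambda variable genes summed to 39 and 45 counts.

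IGHG1 (chr14:105736343-105743071, minus strand), the IgG1 heavy chain, held 90.9% and 90.4% of the counts of the 9 heavy chain constant genes, at 484 and 463 CPM. IGHE, the epsilon constant gene, came next at 26.8 and 28.8 CPM, and IGHG3 at 14.9 and 12.96 CPM. IGHM and IGHD, the isotypes of naive B cells, had 0 counts in both libraries. IGHA1 had 17 and 13 counts and IGHA2 had 28 and 27. The constant genes of the IgG subclasses are close copies, and fragments that map to several places were not counted, so their levels are uncertain. All 59 heavy chain variable genes had 0 counts in both libraries, and 91 heavy chain variable pseudogene entries had 2 counts in all. Per kilobase IGKC exceeded IGHG1 38.3-fold and 36.8-fold. JCHAIN, which joins IgM and IgA subunits, was on at 344 and 394 CPM. Immunoglobulin genes together took 0.671% and 0.582% of the counts.

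The 5 genes that mark the line were all on in both libraries, with the replicates close together. IRF4 stood at 688 and 713 CPM, MAF at 572 and 562 CPM, PRDM1 at 269 and 282 CPM, XBP1 at 248 and 265 CPM and CCND2 at 186 and 190 CPM. Per kilobase IRF4 (117.0 and 121.2) was highest, followed by XBP1 (81.8 and 87.5), MAF (81.7 and 80.3), PRDM1 (39.8 and 41.8) and CCND2 (25.99 and 26.56, with 13.9% of its exonic length shared). IRF4 ranked 223 of all protein-coding genes on that scale, XBP1 353, MAF 385, PRDM1 966 and CCND2 1642.

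Of 22 transcription factors listed for the plasma cell stage, 20 were on and none was off, against 55.3% of protein-coding genes on. This list, like the others, was chosen with earlier results of these data known, so its share on is a description only. IKZF3 (Aiolos), at 775 and 777 CPM, was above IKZF1 (Ikaros), at 72.7 and 74.1 CPM, by 11.5-fold and 11.3-fold per kilobase. POU2AF1, the B cell coactivator of octamer factors, stood at 670 and 658 CPM, while its partner POU2F2 was low with 10 and 12 counts, and POU2F1 was on at 119 and 123 CPM. The other high members were of several families. RUNX3 was on at 520 and 505 CPM, KLF13 at 460 and 436 CPM, and TCF3, an E protein, at 308 and 273 CPM. ZBTB20 was the other low gene, at 18 and 22 counts with 49.8% of its exonic length shared.

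Among 29 surface and secretory markers of plasma cells, 23 were on, 2 were low and 4 were off. SDC1, the syndecan CD138, stood at 119 and 112 CPM, and TNFRSF17, the receptor BCMA, at 28.8 and 31.8 CPM. CD38 was on at 18.6 and 15.4 CPM, GPRC5D at 6.77 and 6.06 CPM, and SLAMF7 at 2.11 and 2.77 CPM. In CPM, which takes no account of gene length, the antigens of antibody and CAR T cell therapy among them thus spanned from SDC1 down to SLAMF7. CD28, a costimulatory receptor found on many myelomas, was on at 95.1 and 103.1 CPM. The secretory machinery was represented by PDIA4 at 526 and 477 CPM, TXNDC5 at 164 and 154 CPM (61.1% of exonic length shared) and MZB1 at 108 and 84.0 CPM. CD27 (3 and 0 counts, 39.1% shared), LY9 (3 and 0), NCAM1 (3 and 0) and CD200 (0 in both) were off, and FCRL5 (5 and 5 counts) and KIT (10 and 25 counts) were low.

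Of 26 mature B cell markers, 9 were on (34.6%), 7 low and 10 off, where 55.3% of protein-coding genes were on. MS4A1 (CD20) had 1 and 1 counts, and CD22, FCER2, EBF1 and BANK1 had 0 in both libraries. CD79A, a signalling chain of the B cell receptor, had 6 and 0 counts, whereas its partner CD79B was on at 19.6 and 19.2 CPM with 14.0% of its exonic length shared. PAX5 was on at 3.33 and 4.27 CPM. BACH2, a repressor that delays plasma cell differentiation, was on at 53.8 and 52.9 CPM, CIITA, the class II transactivator, at 34.1 and 29.6 CPM, and BCL11A at 28.4 and 30.0 CPM.

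Markers of other lineages were mostly low or off. Of 20 T and NK cell markers, 3 were on and 11 off: CD247, the zeta chain of the T cell receptor complex, stood at 109 and 86.7 CPM, the kinase ZAP70 at 88.5 and 73.7 CPM, and GATA3 at 17.0 and 14.6 CPM. CD3D, CD3G, CD4 and CD5 had 0 counts in both libraries, and CD3E had 1 and 0. Of 18 myeloid markers, 4 were on, all at or below 4.94 CPM (S100A9 at 4.94 and 1.46 CPM), and 12 had 0 counts, MPO, ELANE, CD33 and TYROBP among them. Among these CD68 shares 85.6% of its exonic length. None of 14 erythroid and megakaryocyte markers and none of 10 liver markers was on. Of 15 stromal and endothelial markers, 3 were on, PECAM1 at 2.83 and 1.36 CPM, TAGLN at 1.72 and 1.55 CPM and ACTA2 at 1.499 and 1.831 CPM. Of 14 epithelial markers 7 were on, led by the adhesion molecule EPCAM at 92.3 and 89.4 CPM, while KRT19, KRT14 and GRHL2 had 0 counts. Of 14 neuronal markers, 3 were on, GRIN1 at 12.5 and 6.81 CPM, SYT1 at 9.22 and 10.0 CPM and MAP2 at 6.77 and 7.61 CPM. Outside the plasma cell lists, the summed level of a lineage list was highest for T and NK markers (216 and 177 CPM). Mature B (156 and 151 CPM) and epithelial markers (113 and 111 CPM) followed, and each other such list summed to at most 30.7 CPM. CD247 and ZAP70 made up most of the T and NK sum, and the lists differ in number and length of genes.

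**Figure D2:**
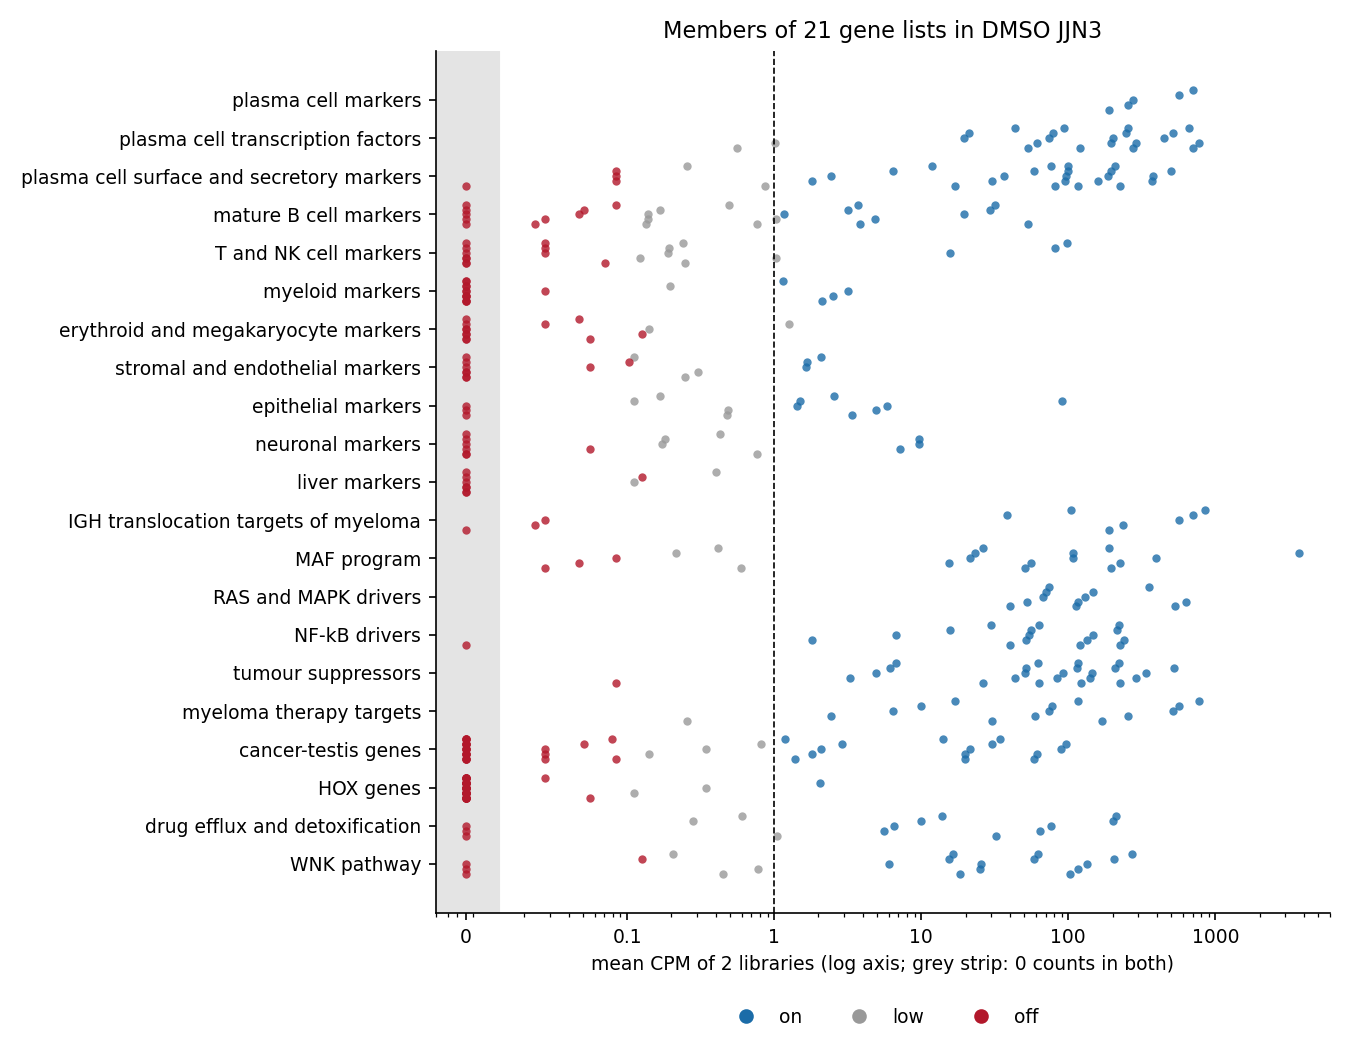
Mean CPM of every matched member of 21 gene lists (1 point per gene, log axis, genes with 0 counts in both libraries in the grey strip, dashed line at 1 CPM). Of the plasma cell transcription factors 20 of 22 were on, of the RAS and MAPK drivers 12 of 12, of the NF-kB drivers 16 of 17, of the tumour suppressors 23 of 24 and of the plasma cell surface and secretory markers 23 of 29, while most members of the myeloid, erythroid, liver and HOX lists lie in the strip or near it.

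Of 10 genes that myeloma translocations place next to the heavy chain enhancers, 7 were on. MYC, a driver of growth and ribosome production, stood at 886 and 819 CPM and exceeded MAF 2.37-fold and 2.22-fold per kilobase. The large MAF factors divided: MAF was 2.20-fold and 2.19-fold above MAFA (105.1 and 103.5 CPM) per kilobase, and NRL was at 0.293 and 0.278 CPM per kilobase. Of the D-type cyclins, CCND2 was 3.65-fold and 4.32-fold above CCND3 (41.0 and 35.4 CPM) per kilobase, and CCND1 had 0 and 1 counts. NSD2, a histone H3 lysine methyltransferase, was on at 248 and 224 CPM, while FGFR3, its neighbour in that translocation, had 1 and 0 counts. Per kilobase NSD1 was 2.32-fold and 2.49-fold above NSD2.

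Of 19 matched genes that are associated with MAF in myeloma, 13 were on, 3 low and 3 off. Beside CCND2, the integrin chain ITGB7 stood at 205 and 188 CPM (42.3% of exonic length shared), the chemokine receptor CCR1 at 106 and 108 CPM, the kinase NUAK1 at 114.8 and 101.2 CPM, the focal adhesion protein TNS3 at 412 and 378 CPM and DEPTOR, an mTOR inhibitor, at 20.8 and 22.1 CPM. CX3CR1 (6 and 2 counts), SMARCA1 (4 and 13) and RASGRP1 (7 and 17) were low. PPP2R2B (0 and 2), NTRK2 (1 and 0) and SPP1 (3 and 0) were off. Membership in such a list says nothing of what set these levels.

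All 12 RAS and MAPK genes were on. NRAS, at 585 and 669 CPM, stood 6.30-fold and 7.30-fold above HRAS per kilobase. Of the RAF kinases, BRAF was on at 70.4 and 70.8 CPM and ARAF at 52.5 and 51.5 CPM. PTPN11, the phosphatase SHP2, was on at 345 and 361 CPM, and NF1, which switches RAS off, at 116 and 117 CPM.

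Of 17 NF-kB genes 16 were on, and the receptor CD40 had 0 counts in both libraries. NFKB2 and RELA, subunits of the noncanonical and canonical complexes, stood at 225 and 206 CPM and at 154 and 142 CPM. MAP3K14, the kinase NIK that starts the noncanonical branch, was on at 55.1 and 55.8 CPM (15.1% shared). The proteins that keep NIK low were on as well, TRAF3 at 222 and 223 CPM, BIRC3 at 214 and 234 CPM, BIRC2 at 48.6 and 54.6 CPM and TRAF2 at 42.1 and 37.8 CPM. The inhibitors TNFAIP3 and NFKBIA stood at 136 and 134 CPM and at 54.9 and 53.4 CPM.

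Of 24 tumour suppressors 23 were on. Those described here ranged widely. The poly(A) polymerase TENT5C had the highest CPM, at 504 and 538, and the chromatin remodeller ARID1A followed at 350 and 321 CPM. The order given for this list is by CPM and does not compare genes of different length. Other chromatin genes were lower, CREBBP at 151 and 129 CPM, SETD2 at 117 and 127 CPM and the X-linked demethylase KDM6A at 27.6 and 24.6 CPM. Brakes of the cell cycle were on throughout. RB1, the retinoblastoma protein, stood at 193 and 225 CPM, and the inhibitors of cyclin-dependent kinases ran from CDKN2C at 161 and 129 CPM through CDKN2A at 88.6 and 79.9 CPM (15.4% shared) and CDKN1B at 62.1 and 62.1 CPM to CDKN2B at 5.16 and 4.74 CPM. The DNA damage kinase ATM was on at 112 and 118 CPM. DIS3, the exosome ribonuclease, was on at 88.6 and 94.6 CPM (10.9% shared), and CYLD, a deubiquitinase of the NF-kB pathway, at 61.7 and 65.1 CPM. MAX, the partner of MYC, stood at 55.5 and 46.7 CPM (16.1% shared), and TSC1, which restrains mTOR, at 40.6 and 46.6 CPM. The lowest members beside CDKN2B were WWOX at 6.00 and 7.56 CPM, EGR1 at 5.88 and 6.38 CPM and FHIT at 2.94 and 3.62 CPM, whose ranges all lay above the 1 CPM limit. WWOX contains the breakpoints of many MAF translocations, and FHIT spans a common fragile site.

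Targets of myeloma drugs were on in 14 of 15 cases, and FCRL5 was low. CRBN, the ligase subunit bound by thalidomide analogues, stood at 71.2 and 84.0 CPM, XPO1, the nuclear exporter, at 490 and 543 CPM, and PSMB5, the proteasome subunit that bortezomib blocks, at 61.6 and 56.6 CPM. MCL1, a pro-survival protein on which myelomas often depend, was at 563 and 570 CPM and exceeded BCL2 9.31-fold and 8.82-fold per kilobase. PSMB5 was 1.99-fold and 2.01-fold above its immunoproteasome counterpart PSMB8 (17.3% shared) per kilobase.

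Paralogs were examined in 88 families with 359 distinct members. Of the members, 257 were on (71.6%, against 55.3% of protein-coding genes), 36 were low and 66 off. No family lacked a member that was on, and in 39 families every member was on. The families, like the lists, were chosen with earlier results of these data known, so these counts are a description only. In 14 families 1 member alone was on. Ratios between paralogs are ratios of CPM per kilobase throughout. The highest member held at least 90% of its family's summed CPM per kilobase, by the mean of the libraries, in 29 families, 50% to 90% in 48 and less in 11. In 7 families the 2 highest members overlapped between the libraries, so that the order is not resolved: CDKN1A and CDKN1B, MAFG and MAFK, AKT2 and AKT1, PIK3CG and PIK3CB, PSMB7 and PSMB6, PSME1 and PSME3, and LMNB1 and LMNA. Genes that share exons with a readthrough gene lose fragments in this table. Leaving out the families with any member over 10% shared left 46, and 16 of these had a member with at least 90%. The highest member reached 90% in both libraries in 27 of the 88 families and in 15 of the 46.

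In 9 of 12 metabolic families 1 paralog held at least 90% of the summed level by the mean of the libraries, and in 8 in both. Without the families that have a member over 10% shared, the count was 4 of 7. ENO1 exceeded ENO3 2467-fold and 2055-fold per kilobase, and the neuronal ENO2 had 5 and 0 counts. Among hexokinases, HK2 (16.2 and 15.5 CPM per kilobase) was 63.3-fold and 56.1-fold above HK1, while HK3 had 0 counts. PGK1 was at least 1553-fold above the testis gene PGK2, which had 0 counts in both libraries, against a floor of 3 counts in the library. COX4I1 was likewise at least 270-fold above COX4I2, a subunit known for its induction in low oxygen. PKM stood at 252 and 238 CPM per kilobase, and the liver and red cell enzyme PKLR had 4 and 0 counts. LDHA was 12.5-fold and 14.5-fold above LDHB, of which 33.4% is shared. ALDOC appeared 8.88-fold and 9.26-fold above ALDOA, but 37.6% of the exonic length of ALDOA is shared. IDH2 and IDH1 were both on, at a ratio of 4.95 and 4.67.

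Among translation families 6 of 11 had such a member, and 4 of 6 without those that have a shared member. EEF1A2, the muscle and neuron form of EEF1A1, had 9 and 24 counts. RPL3L, the heart and skeletal muscle form of RPL3, had 9 and 12 counts, and RPS27 was 125-fold and 109-fold above RPS27L. RPL26L1 stood 2.34-fold and 3.42-fold above RPL26, 14.5% of which is shared, and EIF4A2 160-fold and 96.7-fold above EIF4A1, of which 48.6% is shared, so both orders are uncertain. PABPC1 was 7.84-fold and 8.58-fold above PABPC4.

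In 5 of 13 transcription factor families 1 member held at least 90%, and in 3 of 7 without those that have a shared member. RUNX3 was 12.5-fold and 11.3-fold above RUNX2, with RUNX1 at 1.25 and 1.24 CPM per kilobase. GATA3 was the 1 GATA factor on, GATA2 had 0 and 1 counts, and the other 4 had 0. In the interferon regulatory family IRF4 held 67.5% and 69.5% of the summed level, and IRF8, a factor of germinal centre B cells and myeloid cells, was low with 3 and 7 counts. MYC was 245-fold and 241-fold above MYCL, and MYCN was low with 7 and 23 counts. SPIB was on, while SPI1 (1 and 0 counts) and SPIC (0) were off. All 5 NF-kB subunits were on, from NFKB2 at 47.7 and 43.7 CPM per kilobase to REL at 0.961 and 1.42 (43.3% shared).

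A member with at least 90% was found in 1 of 7 cell cycle families. Of the 3 survival families 1 passed this level by the mean and in replicate 1, and 0 in replicate 2. CDK6 was 1.68-fold and 2.12-fold above CDK4, of which 44.2% is shared, so this order is uncertain. CCNA2 was on at 44.0 and 43.6 CPM per kilobase, and the germ line cyclin CCNA1 was off with 2 and 0 counts. Among INK4 inhibitors CDKN2C led at 53.3 and 42.7 CPM per kilobase, CDKN2A followed at 20.5 and 18.5, and CDKN2B (1.29 and 1.19) and CDKN2D (1.07 and 0.842) were lowest. BAK1 was 3.65-fold and 3.46-fold above BAX. BCL2A1, a pro-survival relative of MCL1, had 0 counts.

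In signalling, PIM2, a kinase on which myeloma growth is known to depend, was 3.90-fold and 4.78-fold above PIM3. FGFR4 and FGFR1 were on at 4.78 and 4.18 and at 2.12 and 2.18 CPM per kilobase, while FGFR2 had 0 counts. All 4 JAK kinases, all 6 TRAF adaptors and all 7 STAT factors were on.

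In chromatin 1 of 11 and in the cytoskeleton 1 of 5 families had a member with at least 90%, against 0 of 5 and 1 of 2 without those that have a shared member. DNMT1, the maintenance DNA methyltransferase, was 4.29-fold and 4.06-fold above DNMT3B, and DNMT3L had 0 counts. EZH2 was 4.34-fold and 4.31-fold above EZH1. SMARCA5 was on and SMARCA1 low with 4 and 13 counts. ACTB was 1.90-fold and 2.05-fold above ACTG1, and the muscle actins ACTA1 (5 and 6 counts) and ACTC1 (0) were low and off. MYH9 was 290-fold and 275-fold above MYH10, and MYH14 had 0 counts. Transport showed SLC7A5, the leucine transporter LAT1, 22.6-fold and 23.4-fold above SLC7A6, of which 55.6% is shared, and SLC16A1, a lactate transporter, 9.52-fold and 13.7-fold above SLC16A3. In the secretory pathway SEC61A1 was 96.2-fold and 62.9-fold above SEC61A2, and ERO1A stood at 26.7 and 27.3 CPM per kilobase with ERO1B low at 3 and 4 counts.

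**Figure D3:**
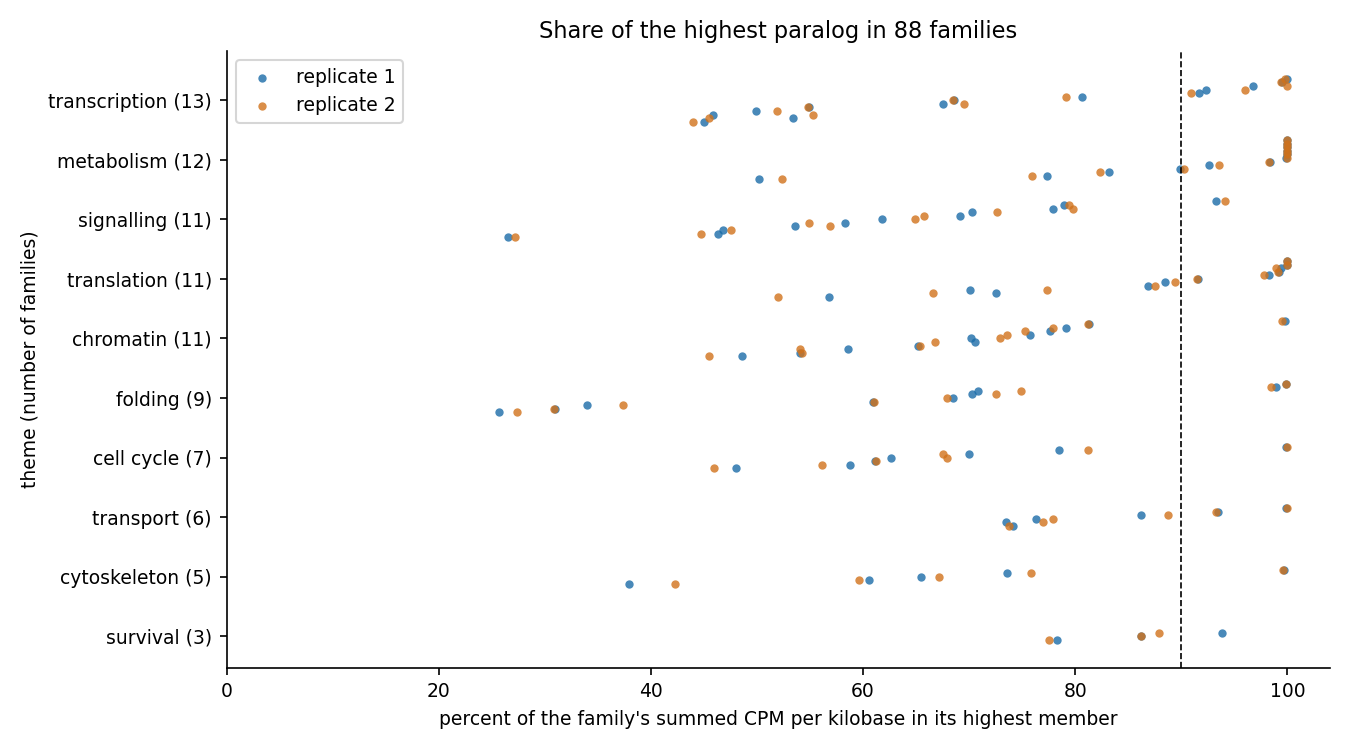
Percent of each family's summed CPM per kilobase held by its highest member, for 88 paralog families grouped by theme (1 point per family and library, dashed line at 90%). Metabolism and translation have 9 of 12 and 6 of 11 families past the line by the mean of the libraries, and 4 of 7 and 4 of 6 without families that have a member over 10% shared. Cell cycle and chromatin have 1 of 7 and 1 of 11, and 1 of 2 and 0 of 5 without them.

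The WNK kinases are the targets of the inhibitor used elsewhere in the study. They sense chloride and osmotic stress and act through OXSR1 and STK39 on the SLC12 cotransporters. Of 20 pathway genes 13 were on, 3 low and 4 off. WNK1 stood at 275 and 267 CPM, 14.1-fold and 16.3-fold above WNK2 (17.9 and 15.1 CPM) per kilobase, WNK3 was low with 4 and 4 counts, and WNK4 had 0 counts with 15.4% of its exonic length shared. OXSR1 was on at 130 and 137 CPM and STK39 at 56.8 and 68.3 CPM, 1.40-fold and 1.22-fold apart per kilobase. Of the cotransporters, SLC12A7 (KCC4) was highest at 212 and 199 CPM, and it exceeded SLC12A2 (NKCC1), at 59.5 and 57.7 CPM, 6.33-fold and 6.11-fold per kilobase. The kidney cotransporters SLC12A1 and SLC12A3 had 0 counts. CUL3, a ligase scaffold that degrades WNKs, was on at 111 and 124 CPM, with its adaptors KLHL2 on at 21.3 and 29.1 CPM and KLHL3 low with 16 and 14 counts.

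Genes that are restricted to the germ line in normal adults were on in 15 of 44 cases, low in 3 and off in 26, and 20 of these had 0 counts in both libraries. By CPM, without regard to gene length, the highest were MAGEA3 at 98.6 and 95.3, PAGE5 at 95.6 and 82.1 and MAGEA6 at 63.7 and 58.7. MAGEA12 at 59.7 and 58.0 CPM, MAGEC1 at 35.6 and 33.6 CPM and MAGEB2 at 32.5 and 28.5 CPM came next. MAGEA1 (1 and 0 counts) and MAGEA10 (0) were off. CTAG2 was on at 21.7 and 21.3 CPM, whereas CTAG1A and CTAG1B, near-identical copies whose fragments map to both, had 0 counts. MAGEA3, MAGEA6 and MAGEA12 are also close copies, and their split is uncertain.

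Of 39 HOX genes, which set position along the body axis, HOXA11 alone was on, at 2.50 and 1.60 CPM with 27.2% of its exonic length shared with its antisense gene. Fragments were counted without strand, so the 2 transcripts cannot be told apart. HOXB7 and HOXB9 were low with 4 and 0 and with 4 and 10 counts, and 34 members had 0 counts in both libraries. Of 16 genes of drug efflux and detoxification, 15 matched, and 9 were on. ABCC1 stood at 207 and 199 CPM and NQO1 at 210 and 210 CPM (19.4% shared), ABCB1, the multidrug pump, was low with 15 and 27 counts, and ABCC3, GSTP1 and GSTM1 had 0 counts.

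The error behind these levels was taken from the 2 libraries. Over 14733 genes with a mean of at least 10 counts, the log2 ratio of replicate 2 to replicate 1 had a median of -0.01 and an SD of 0.51. For the 10613 genes of at least 4 CPM the SD was 0.23, 97.6% lay within 1.5-fold and 15 differed by over 2-fold. The 2 libraries were treated as 2 samples. Differences exceeded sampling noise, with a chi-square per degree of freedom of 9.17, which cannot tell separate cultures from libraries of 1 culture. The largest were RN7SL1, the RNA of the signal recognition particle, at 14.6 and 3.76 CPM, ZNF428 at 12.8 and 5.63 CPM, SCX at 11.3 and 5.07 CPM and TNFRSF8 (CD30) at 5.61 and 2.58 CPM, all higher in replicate 1, and ABCD2 at 3.33 and 7.32 CPM and ADPRM at 2.83 and 6.24 CPM, higher in replicate 2. ATP5ME, KDM4A-AS1 and CASKIN2 were also higher in replicate 1, and LRRC69 in replicate 2.

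The difference moved with base composition. Across 14593 genes with a GC value, Pearson's r of the log2 ratio with GC content was -0.24 and Spearman's rho was -0.40, over genes that share the same pair of libraries. The median log2 ratio went from 0.12 in genes of up to 42.7% GC to 0.04 up to 48.4%, -0.07 up to 56.1% and -0.18 above. Of 13 mitochondrial protein genes 12 were higher in replicate 2, with a median log2 ratio of 0.25, and of 86 ribosomal protein genes 19 were higher there, with a median of -0.09. The part of GC content in the level of any named gene was not tested.

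**Figure D4:**
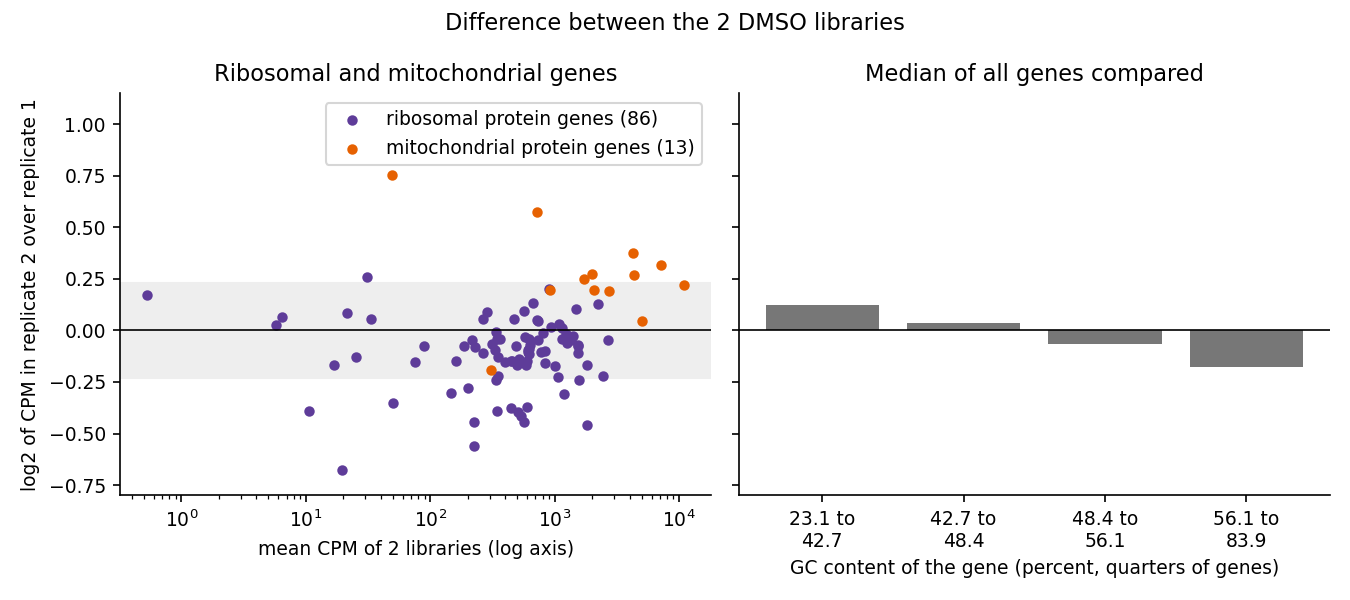
Left, log2 ratio of CPM in replicate 2 over replicate 1 for 86 ribosomal and 13 mitochondrial protein genes against mean CPM (log axis), with 1 SD of all genes of at least 4 CPM in grey. Right, the median log2 ratio by GC content in 4 equal groups of genes, which falls from 0.12 to -0.18.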

How the data were processed

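Total RNA of JJN3 was sequenced in 6 libraries, and the 2 DMSO libraries were used. The authors deposited fragment counts per gene, made per the file headers with featureCounts 2.0.0 from paired reads on hg38 and GENCODE 34, without strand, at a mapping quality of at least 20, and without multi-mapping fragments or fragments over several genes. Trimmomatic and STAR are named in the submitters' processing notes, with no version. The exon length in the deposited table is a sum over all transcripts of a gene, so values per kilobase understate genes with long unused exons, and its unit is base pairs ("other"). ANK2, whose line is split in 3 in the table, was put back together.

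CPM were computed from library totals with Python 3.11.15 and pandas 2.3.3. TMM (edgeR 4.0.16) and DESeq2 1.42.0 size factors in R 4.3.3 were alternatives, as were thresholds of 0.5 and 2 CPM. Symbols were matched by identifier, leaving 313 genes without one. GENCODE 29 supplied the GC content and the type of each gene, except for 2187 it lacks. Exonic length shared between genes was computed from the deposited exon coordinates, and 20.8% of the genes that were on shared over 10%. Lists had 378 distinct matched members. For 2 listed symbols no match was found. Counting floors cover counting error only, and the sources used here name no molecular identifiers. The scripts were tested on simulated data. Named genes were the 20 highest by CPM and by CPM per kilobase among protein-coding genes, the 10 highest noncoding genes, all marker, translocation and tumour suppressor genes, leading members and exceptions of the other lists and families, the leading immunoglobulin genes and the 10 largest replicate differences of genes of at least 4 CPM. Members, lists and families were chosen with earlier results of these data known. The promoter windows, runs of genes and T cell receptor genes were added after seeing the data. A few list members are not reported here.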

Additional observations from a re-analysis of the deposited data

How the results depend on the processing

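No paired analysis was possible because 1 group was described and its values come from no test. With thresholds of 0.5 and 2 CPM, 13895 and 11394 genes were on, and with 1 library alone between 13006 and 13029. TMM and DESeq2 scaling each gave 12523 and kept the 82 named levels tested between 99.3% and 100.7% of their value. Both scalings hold the average size of the 2 libraries nearly fixed, so this narrow range for their mean was built in. A total without mitochondrial and immunoglobulin genes raised the named levels to between 105% and 106%. Of 227 alternative counts and shares 15 moved beyond their limit. At 2 CPM, 1 myeloid, 0 stromal, 4 epithelial and 0 HOX genes were on, at 0.5 CPM per kilobase 1 stromal gene, and at 0.5 CPM 1 erythroid gene. Leaving out a replicate gave 0 to 1 erythroid genes on. As counts per kilobase, the 10 highest genes held 18.8%, the 100 highest 37.5%, mitochondrial genes 18.6%, immunoglobulin genes 4.43% and ribosomal protein genes 7.20%. Without mitochondrial genes the 10 and 100 highest held 5.24% and 17.4%, and ribosomal protein genes 6.04%. The median log2 ratio between the libraries lay between -0.02 and 0.01 under every scaling and filter tried, with a change of sign under TMM and DESeq2. Depth limits calls of off to genes under 0.167 CPM. The counts of paralog families by theme in each library, and without families that have a shared member, were chosen after seeing the data.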

Other observations

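T cell receptor genes were on without the CD3 chains. TRBC2 (chr7:142801041-142802748) had 802 and 951 counts, 44.5 and 44.6 CPM, while TRBC1 had 18 and 13 counts, and 49 beta variable genes summed to 66 and 66 counts. TRDC had 123 and 260 counts, with 38.8% of its exonic length shared with TRD-AS1, and TRAC had 44 and 32. Gamma variable genes summed to 376 and 317 counts, led by TRGV5, while the gamma constant genes had 1 and 0. Beside them CD247 and ZAP70 were on, and CD3D and CD3G had 0 counts.

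Off genes formed long runs along the chromosomes. The longest unbroken run of off protein-coding genes, on chromosome 17, held 55 keratin and keratin-associated genes from KRT12 to KRT17, of which 54 had 0 counts in both libraries. Others were 47 genes on chromosome 1 with 42 olfactory receptors, 44 on chromosome 11 with 31, and 41 on chromosome 8 from XKR5 to USP17L3. All 41 on chromosome 8 had 0 counts in both libraries. A run of 35 on chromosome 21 held 33 keratin-associated genes. Fragments that map to several places were not counted, so where genes of a run are close copies, 0 counts give no level. Runs of genes that were on were shorter, with 20 from BBLN to ENDOG on chromosome 9 as the longest. Over chromosomes 1 to 22 and X, the share of protein-coding genes on ran from 41.6% on X and 45.5% on 21 to 61.4% on 13.

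A run of 22 off genes at the end of X includes the first pseudoautosomal region, whose sequence X shares with Y. The table lists 45 pseudoautosomal genes again as a second entry, and all 45 entries on X, 18 of them protein-coding, had 0 counts in both libraries. They include SLC25A6, an ADP/ATP carrier, with 0 counts, next to its paralog SLC25A5 at 296 and 312 CPM. Their off state in this table gives no level.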
